A study of Homo sapiens
Mus musculus with 5 samples.

Results

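The cytosolic ribosomal protein genes were read in tumors grown by human H2030-BrM3 cells in mice, separately in the human reads, taken as the cancer cells, and in the mouse reads, taken as the host. They were chosen by symbol alone: every gene named RPL or RPS with a number, RPLP0, RPLP1, RPLP2 and RPSA, leaving out the S6 kinases and pseudogenes. This gave 83 of the 25524 human genes (51 of the large and 32 of the small subunit) and 82 of the 24628 mouse genes (50 and 32). In each species 6 of them are paralogues with a standard partner, such as RPL22L1 beside RPL22. RPS10L had a matching name but is a pseudogene in the RefSeq annotation and was left out. FAU, RACK1, RPL36AL and the mouse gene Rps3a1 fall outside the naming rule and are given with other transcripts further on. A total of 80 symbols were members in both species, RPL10L, RPL26L1 and RPS3A only in human and Rpl3l and Rps4l only in mouse.

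All tumors came from H2030-BrM3, a brain-seeking derivative of a human lung adenocarcinoma line, in athymic nu/nu mice, which lack T cells. There were 3 brain tumors and 2 orthotopic lung tumors, the lung tumors started by injecting cells through the trachea. The labels do not say how the brain tumors were started, nor whether each tumor came from its own animal, so that every p-value measures only the spread between these libraries. The comparison, per the series' design text, is of cancer cells growing in brain and in lung.

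Each ribosome is built from ribosomal RNA and 1 copy of nearly every ribosomal protein, with the P1 and P2 stalk proteins present in several copies. Their mRNAs are short and abundant, carry a 5′ terminal oligopyrimidine (TOP) tract, and are translated under the control of the mTOR pathway through LARP1 and the 4E-BP proteins. The genes are also the parents of a very large number of processed pseudogenes, so that short reads from one transcript can match many places in a genome.

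Levels are given as RPKM, a read count divided by the length of the gene and by the number of reads of that species in the library. Whole reads could be recovered for every gene seen in more than 1 library. The 4393 human and 3995 mouse genes seen in 1 library only were set at 1 read. The reads came to 2445904 to 8419288 human and 231156 to 8636094 mouse reads per library. Lung tumor 1 had the fewest mouse reads. Human reads made up 75.6%, 56.5% and 22.1% of the reads of brain tumors 1, 2 and 3, 96.6% of lung tumor 1 and 41.4% of lung tumor 2. The 10 host brain markers summed to 13798 to 15798 RPKM in the mouse reads of the brain tumors, and to 178 and 74.9 in lung tumors 1 and 2. The 10 host lung markers summed to 59.9 to 115 RPKM in the brain tumors, but to 1024 in lung tumor 1 and 65956 in lung tumor 2. The lung marker sum thus differed widely between the lung tumors, and each is given apart throughout. Blood markers summed to 5.80 to 149 RPKM in the brain tumors and to 5341 and 2271 in lung tumors 1 and 2. In bulk tumors, fewer cells of a type and less RNA per cell cannot be told apart.

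In the cancer cells, ribosomal protein transcripts were near the same level in the 3 brain tumors and lung tumor 2, and far higher in lung tumor 1. The members took 3.88%, 3.26% and 3.71% of the human reads in brain tumors 1, 2 and 3, 9.91% in lung tumor 1 and 3.08% in lung tumor 2. Exact 95% binomial intervals, which cover counting error only, ran from 9.89% to 9.93% in lung tumor 1 and from 3.06% to 3.10% in lung tumor 2. The median member stood at 447, 397 and 447 RPKM in the brain tumors, at 1208 RPKM in lung tumor 1 and at 369 RPKM in lung tumor 2. Lung tumor 2 thus lay just under all the brain tumors while lung tumor 1 lay far above them. Large subunit genes held 63.2% to 65.9% of the member reads in every library.

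**Figure D1:**
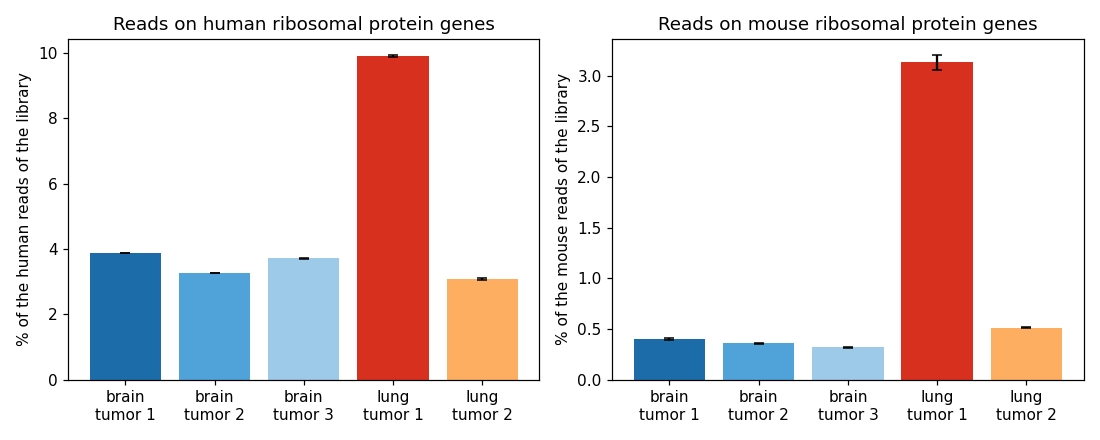
Reads on cytosolic ribosomal protein genes as a percentage of all human reads (left) and all mouse reads (right) of each library, 1 bar per tumor, with exact 95% binomial intervals of the counting error. Lung tumor 1 is the highest bar in both species (9.91% human, 3.13% mouse).

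Gene by gene, 76 of the 82 human members that passed the low-value filter were highest in lung tumor 1, against 24.2% of the 14423 human genes tested. In 51 of them lung tumor 1 was at over 2 times the next library (5.82% of all tested genes). In 45 the 3 brain tumors lay above lung tumor 2 and below lung tumor 1 (6.66%), the order with no common direction for lung. All brain tumors lay below both lung tumors for 10 members (12.2%, near the 12.3% of all tested genes), and above both for 0 (17.4%).

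**Figure D2:**
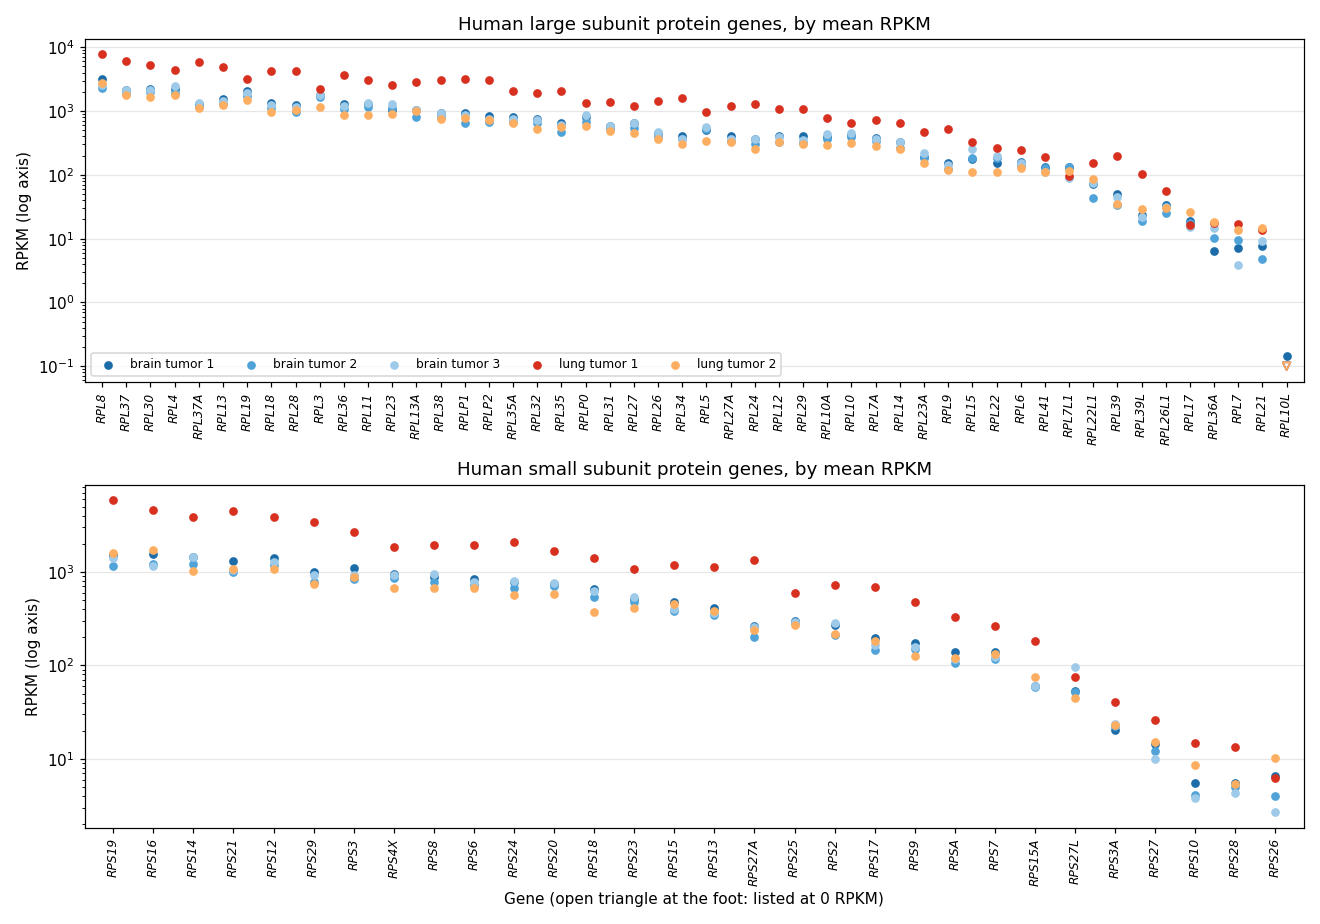
RPKM (log axis) of human large (top) and small (bottom) subunit gene, ordered by mean, 1 point per library (blues brain tumors, red lung tumor 1, orange lung tumor 2), with open triangles for genes listed at 0. Red points stand above the others for 76 of 82 tested members, while the orange points lie above all blue ones for 12 and among or under them for the others.

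The most abundant human members showed this pattern. RPL8, next to the catalytic centre of the large subunit, read 3222, 2327 and 2536 RPKM in the brain tumors, 7722 in lung tumor 1 and 2756 in lung tumor 2. RPL37, a small zinc-binding protein of the large subunit, read 2128, 1839 and 2166 RPKM in the brain tumors, 6184 in lung tumor 1 and 1765 in lung tumor 2. RPL30 read 2239, 1972 and 2113 RPKM in the brain tumors, 5223 in lung tumor 1 and 1671 in lung tumor 2. For RPL37 and RPL30 the brain tumors fell between the lung tumors, and for RPL8 lung tumor 2 lay among them. RPL4, which lines the peptide exit tunnel, read 2250, 1898 and 2442 RPKM in the brain tumors, 4425 in lung tumor 1 and 1792 in lung tumor 2. Brain lay between the lung tumors for RPL4 as well. None of these 4 passed the test, with log2 fold changes of brain over lung from -0.79 for RPL8 (SE 0.529) to -0.37 for RPL4 (SE 0.484) and limma adjusted p-values of 0.568 to 0.778.

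The ribosomal stalk, which recruits elongation factors, was uneven. RPLP1 read 943, 652 and 859 RPKM in the brain tumors, 3219 in lung tumor 1 and 791 in lung tumor 2, and RPLP2 read 830, 673 and 760, then 3076 and 725. RPLP0, the base that holds them, read 795, 674 and 865 RPKM in the brain tumors, 1343 in lung tumor 1 and 584 in lung tumor 2. Lung tumor 1 was thus 3.41 and 3.71 times the highest other library for RPLP1 and RPLP2 and 1.55 times for RPLP0. RPL5 and RPL11, which bind the 5S RNA and, when free, the p53 regulator MDM2, were likewise highest in lung tumor 1. RPL5 read 503, 521 and 565 RPKM in the brain tumors, 951 in lung tumor 1 and 346 in lung tumor 2, while RPL11 read 1315, 1174 and 1338, then 3025 and 854. Both were lower in lung tumor 2 than in any brain tumor. RPL10, which joins the large subunit late, read 424, 397 and 447 RPKM in the brain tumors, 644 in lung tumor 1 and 321 in lung tumor 2. RPL41, the shortest of the proteins, read 135, 127 and 111 RPKM, then 187 and 113.

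Among small subunit genes, RPS27A, which encodes ubiquitin fused to a ribosomal protein, differed most in lung tumor 1. It lies at chr2:55231903-55235853 (GRCh38) and read 265, 202 and 258 RPKM in the brain tumors, 1353 in lung tumor 1 and 237 in lung tumor 2. Lung tumor 1 was 5.10 times the next library, more than for any other human member. RPS19, often mutated in Diamond-Blackfan anaemia, read 1531, 1149 and 1426 RPKM in the brain tumors, 5850 in lung tumor 1 and 1588 in lung tumor 2. RPS6, the substrate of the S6 kinases, read 839, 723 and 775 RPKM in the brain tumors, 1953 in lung tumor 1 and 678 in lung tumor 2. Lung tumor 2 thus stood just above the brain tumors for RPS19 and just under them for RPS6. RPSA, also called the laminin receptor precursor, read 140, 106 and 116 RPKM, then 326 and 119. RPS4X, encoded on the X chromosome, read 954, 853 and 935 RPKM, then 1842 and 670.

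In the limma fit of brain against lung, 0 of the 82 human members were called at an adjusted p under 0.05. Over all human genes 1 was called higher in brain (0.00693% of those tested) and 0 lower (0.0%), and voom on the recovered reads called 0 members. At an unadjusted p under 0.05, 4 members were lower in brain (RPL39L, RPL7, RPS10 and RPS15A), or 4.88% of the members against 4.36% of all tested genes. The lowest adjusted p of a member was 0.470, for RPS10 (log2 fold change -1.17, SE 0.438), which read 5.52, 4.15 and 3.81 RPKM in the brain tumors, 14.7 in lung tumor 1 and 8.52 in lung tumor 2. It is a low-read gene in this table, with 7 reads in brain tumor 3. The median log2 fold change over tested members was -0.66, against 0.09 over all tested genes, with 77 members below 0 and 5 above. Large subunit genes had a median of -0.62 and small subunit genes of -0.67.

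The median rested on which lung tumor was used. Without lung tumor 1 it was 0.20, 61 members lay above 0, and limma called 0 members (0.0% of all genes were called higher and 0.0% lower). Without lung tumor 2 it was -1.43 and 59 members were called lower in brain, against 4.78% of all tested genes called lower, while 0 members were among the 8.42% called higher. In both of these fits the lone lung tumor was assumed to vary like the brain tumors. RPL11 shows the turn: its log2 fold change was 0.58 (limma adjusted p 0.480) against lung tumor 2 alone and -1.25 (limma adjusted p 0.0261) against lung tumor 1 alone.

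**Figure D3:**
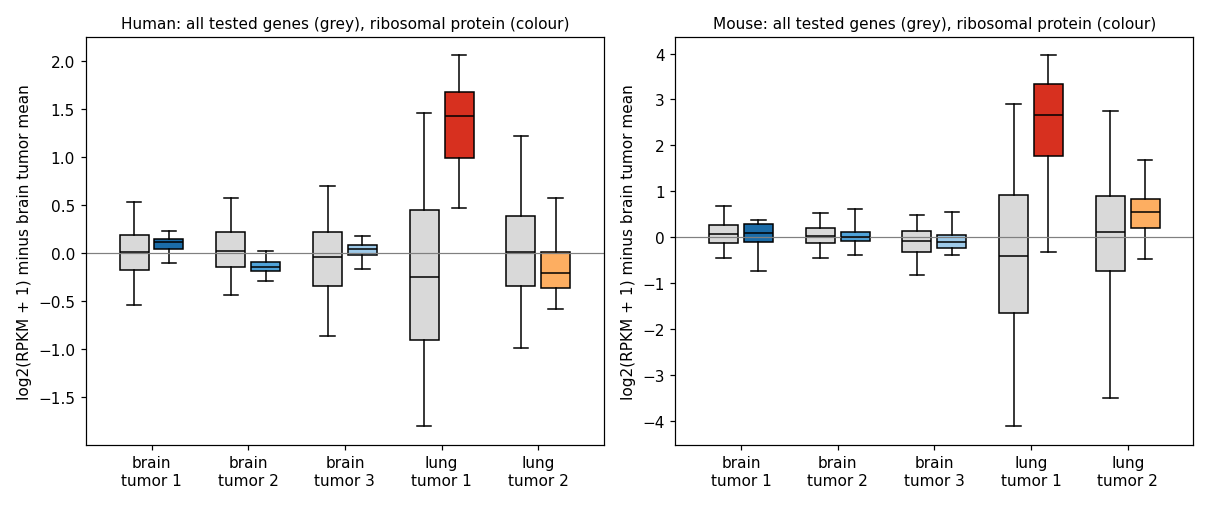
Log2(RPKM + 1) of each library minus the brain tumor mean of the same gene, for human (left) and mouse (right) genes, with grey boxes for all tested genes and coloured boxes for ribosomal protein genes (line, median; box, quartiles; whiskers, the central 90% of genes). The member median was 1.43 in human and 2.66 in mouse reads of lung tumor 1, and -0.20 and 0.55 in lung tumor 2.

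Within the brain, the human members moved little and moved together. Relative to the brain mean, the median member was 0.12 higher in brain tumor 1, -0.14 in brain tumor 2 and 0.05 in brain tumor 3, on the log2 scale. Brain tumor 2 was the lowest of the brain tumors for 66 of 82 members, against 25.6% of all tested genes. The log2 difference between 2 brain tumors had an SD over members of 0.20 to 0.27, against 0.45 to 0.77 over all tested genes, which include many with few reads. The difference between lung tumors 1 and 2 had an SD of 0.66 over members, against 1.05 over all tested genes. The excess in lung tumor 1 was thus not the same for each member, though members again varied less than all tested genes.

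Short genes carried more of that excess. Over 82 members, Spearman's rho between the log2 difference of lung tumor 1 from the brain mean and gene length was -0.36, and with mean RPKM it was 0.39, both given as descriptions. The lengths are those implied by RPKM and reads, and the members share the same 4 libraries. Members in the shortest of 5 equal groups of human genes by length (29 genes) had a median difference of 1.60, those in the next (34 genes) of 1.28 and those in the third (16 genes) of 1.11. The other tested genes of the same 3 length groups had medians of -0.07, -0.13 and -0.05 in lung tumor 1, and the longest group, which holds 0 members, had -0.67. Removing a length trend per library left the member median of the brain and lung comparison at -0.65. The part of RNA quality was not tested.

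**Figure D4:**
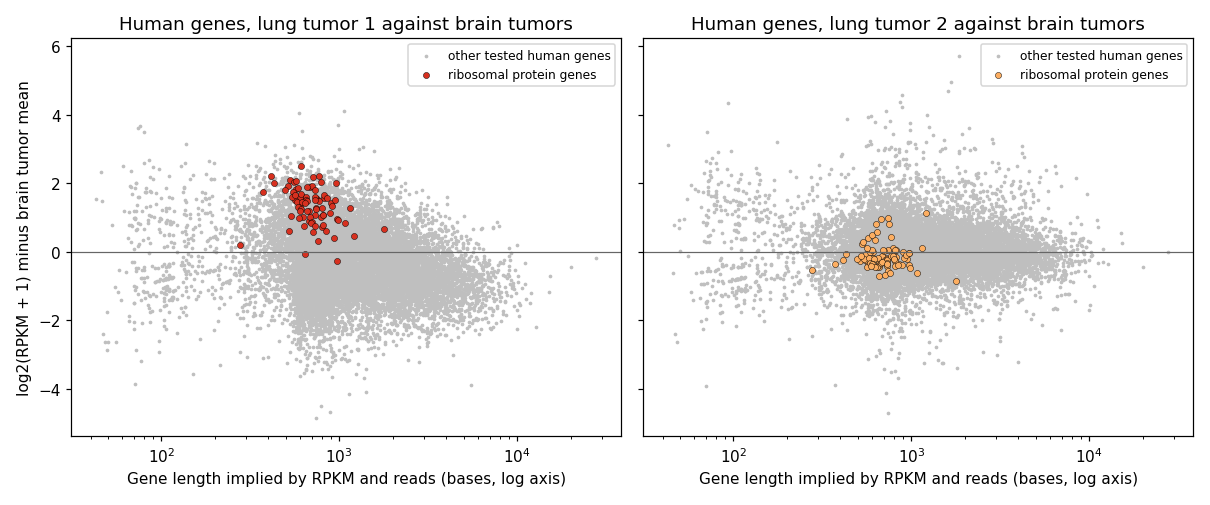
Log2(RPKM + 1) minus the brain tumor mean against gene length (bases, log axis, as implied by RPKM and reads), for lung tumor 1 (left) and lung tumor 2 (right), with grey points for other tested human genes and coloured points for ribosomal protein genes. In lung tumor 1 the members lie above the grey points of the same length on the median (1.60 against -0.07 in the shortest group), and in lung tumor 2 they lie slightly under 0.

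Some human members did not follow the rest, among them 2 of the 5 tested paralogues. A total of 6 tested members were not highest in lung tumor 1: RPL17, RPL21, RPL36A, RPS26, RPL7L1 and RPS27L, named here after their values were seen. RPL17, RPL21, RPL36A and RPS26 rested on 24, 15, 23 and 8 reads in brain tumor 3. How reads matching these genes and their pseudogenes were counted is not given, so their levels and order between libraries are uncertain. RPL7L1, a paralogue of RPL7, read 135, 134 and 88.2 RPKM in the brain tumors, 97.3 in lung tumor 1 and 113 in lung tumor 2, with both lung tumors inside the brain range. RPS27L, a paralogue of RPS27 that p53 can induce, read 53.7, 52.6 and 95.04 RPKM, then 74.4 and 44.5, with brain tumor 3 highest. RPL22L1 read 73.1, 44.1 and 74.0 RPKM in the brain tumors, 154 in lung tumor 1 and 87.0 in lung tumor 2, so that both lung tumors lay above all brain tumors. Its partner RPL22 read 153, 182 and 201 RPKM, then 267 and 111, so that brain lay between the lung tumors. RPL26L1 read 33.2, 25.5 and 31.4 RPKM, then 55.8 and 30.3, beside 447, 399 and 474, then 1460 and 369, for RPL26.

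RPL39L, at chr3:187120948-187139496 (GRCh38), had the lowest log2 fold change of all human members. This paralogue of the exit tunnel protein RPL39 is best known from testis. It read 23.5, 19.1 and 21.9 RPKM in the brain tumors, 103 in lung tumor 1 and 29.2 in lung tumor 2, so that the groups did not overlap. The log2 fold change was -1.32 (SE 0.518) with a limma adjusted p of 0.471, and -0.43 (adjusted p 0.712) without lung tumor 1. RPL39 itself read 50.02, 33.5 and 44.4 RPKM, then 198 and 35.4. RPL10L, a testis paralogue of RPL10, read 0.143 RPKM in brain tumor 1, where its count was set at 1 read, and 0 in the other 4 libraries.

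The highest log2 fold changes were small. RPS27L had 0.16 (SE 0.405), RPL7L1 0.15 (SE 0.337) and RPL3 0.15 (SE 0.415), with limma adjusted p-values of 0.873 to 0.905. RPL3, which reaches the catalytic centre, read 1769, 1684 and 1817 RPKM in the brain tumors, 2184 in lung tumor 1 and 1150 in lung tumor 2. RPL15 read 180, 181 and 251 RPKM, then 322 and 111. In both, all brain tumors lay between the lung tumors.

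Although ribosomes hold the proteins in near equal amounts, the human members spanned a wide range of RPKM. Of 83 members, 28 had a mean over 1000 RPKM. Of the 77 members other than paralogues, 10 stood below 10% of the median member's mean of 579 RPKM, among them RPS26, RPS28, RPS10, RPL21, RPL7, RPL36A, RPS27, RPL17 and RPS3A, with means from 5.96 RPKM upwards. RPL7, a large subunit protein, read 7.07, 9.51 and 3.89 RPKM in the brain tumors, 17.0 in lung tumor 1 and 13.7 in lung tumor 2, while RPS27 read 14.5, 12.3 and 9.999, then 26.2 and 15.03. These 10 have a median of 52 RefSeq pseudogenes, against 14 for the other 67, and over all 83 members rho between mean RPKM and that number was -0.28. How reads that match a gene and its pseudogenes were counted is not given in the sources used here, and the levels of these members are uncertain for that reason. A total of 451 pseudogene rows of the same families held 0.534 to 0.700 reads per 100 member reads in the human libraries.

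In the host, the share of reads counted on ribosomal protein genes was smaller than in the cancer cells of the same library. How reads matching several genes or both genomes were counted is not given, and its part in this difference was not tested. The members held 0.402%, 0.358% and 0.320% of the mouse reads in brain tumors 1, 2 and 3, 3.13% in lung tumor 1 and 0.513% in lung tumor 2. The exact 95% interval for lung tumor 1 was 3.06% to 3.20%. The median member stood at 20.5, 19.4 and 19.0 RPKM in the brain tumors, 122 in lung tumor 1 and 25.8 in lung tumor 2. Both lung tumors were above all brain tumors, by unequal amounts. The depth behind these medians was small, at 36, 70 and 120 reads for the median member in the brain tumors, 21 in lung tumor 1 and 97.5 in lung tumor 2. In lung tumor 1, 33 of the 78 tested mouse members had under 10 reads.

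Lung tumor 1 was highest for 69 of the 78 tested mouse members, against 26.6% of the 15431 mouse genes tested, and at over 2 times the next library for 60 (10.8%). All brain tumors lay below lung tumor 2 for 54 members (44.2%) and below both lung tumors for 50 (26.2%). They lay above both for 3 (30.0%). Inside the brain, 35 members fell in the order brain tumor 1, 2, 3 (28.7%).

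**Figure D5:**
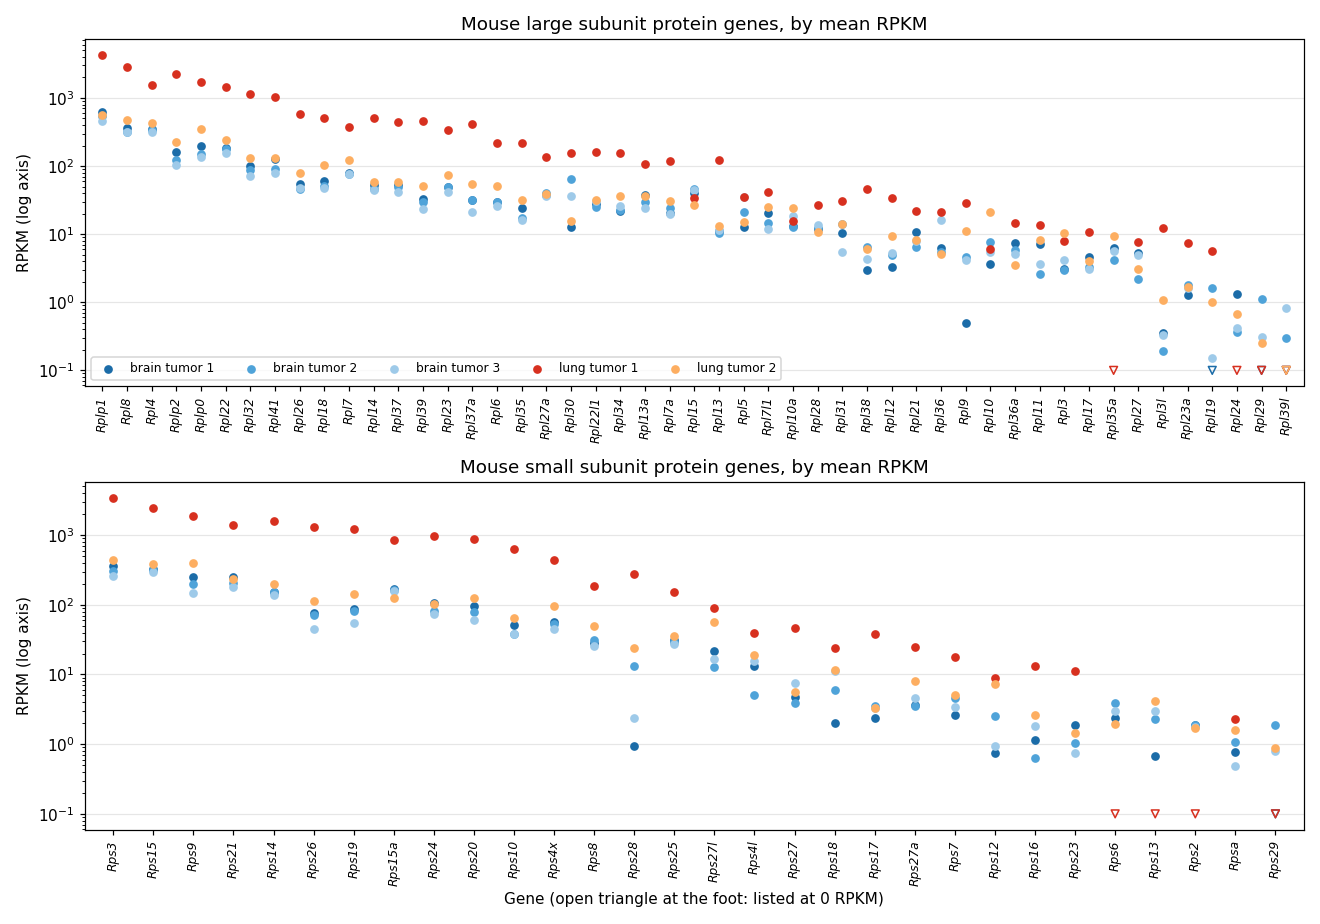
RPKM (log axis) of mouse large (top) and small (bottom) subunit gene, ordered by mean, 1 point per library in the colours of the human plot, with open triangles for genes listed at 0. Lung tumor 1 is highest for 69 of 78 tested members, and the points of the least abundant genes, which rest on few reads, scatter most.

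The abundant host members were separated from the brain tumors mainly by lung tumor 1. Rps3, which sits at the mRNA entry, read 355, 306 and 257 RPKM in the brain tumors, 3396 in lung tumor 1 and 447 in lung tumor 2. Rps15 read 330, 315 and 300 RPKM, then 2422 and 385. For both genes the lung tumors were above all brain tumors. Rpl8 read 363, 315 and 318 RPKM in the brain tumors, 2816 in lung tumor 1 and 477 in lung tumor 2. None of them passed the test, with log2 fold changes of -2.02 (SE 0.840) for Rps3, -1.61 (SE 0.764) for Rps15 and -1.80 (SE 0.745) for Rpl8 and limma adjusted p-values of 0.134 to 0.178.

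The host stalk genes differed among themselves. Rplp1 read 612, 551 and 463 RPKM in the brain tumors, 4317 in lung tumor 1 and 568 in lung tumor 2, with lung tumor 2 inside the brain range. Rplp2 read 162, 124 and 103 RPKM, then 2260 and 228. Rplp0 read 199, 151 and 134 RPKM, then 1715 and 350, and was called lower in brain without lung tumor 1 (log2 fold change -1.13, limma adjusted p 0.0445) but not with it (-2.28, SE 0.686, adjusted p 0.0634). Of the 5S partners, Rpl5 read 12.8, 21.5 and 35.6 RPKM in the brain tumors, 35.0 in lung tumor 1 (7 reads) and 15.1 in lung tumor 2. Its groups were not separated. Rpl11 read 7.06, 2.60 and 3.70 RPKM, then 13.8 (2 reads) and 8.14.

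In the limma fit, 2 of 78 mouse members were called lower in brain, against 8.12% of all tested mouse genes, and 0 were among the 14.3% called higher. Of all mouse calls 63.8% were higher in brain, against 50.7% with voom and 69.0% with median-ratio scaling. Rps27l, the p53-inducible paralogue of Rps27, read 21.98, 13.0 and 16.7 RPKM in the brain tumors, 88.6 in lung tumor 1 and 56.0 in lung tumor 2. It fell by 2.00 on the log2 scale in brain (SE 0.382, adjusted p 0.0169). The groups did not overlap, and the call held with lung tumor 2 alone (-1.68, adjusted p 0.0290) and with lung tumor 1 alone (-2.33, adjusted p 0.00705), but not when any 1 of the brain tumors was left out. Its partner Rps27 read 4.72, 3.91 and 7.67 RPKM in the brain tumors, 46.0 in lung tumor 1 (5 reads) and 5.65 in lung tumor 2. Rps27 was not called (-1.50, SE 0.859, limma adjusted p 0.252). Rps12, a small subunit protein, was called at -1.99 (SE 0.474, adjusted p 0.0333) from 0.757, 2.51 and 0.953 RPKM in the brain tumors, 8.85 in lung tumor 1 and 7.38 in lung tumor 2. It rested on 1, 6 and 4 reads in brain and 1 and 19 in lung, and was not called without lung tumor 1 (adjusted p 0.0543) or when any 1 of the brain tumors was left out.

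A total of 29 mouse members had an unadjusted p under 0.05, all lower in brain, against 16.6% of all tested genes lower at that level. The median log2 fold change over tested mouse members was -1.62, against 0.08 over all tested genes, and 73 of 78 were below 0. Without lung tumor 1 the median was -0.55 and 5 members were called lower (Rpl3, Rpl10, Rpl18, Rplp0 and Rps27l), against 13.7% of all genes called lower, with 0 members among the 16.1% called higher. Without lung tumor 2 the median was -2.66 and 61 members were called lower (20.3% of all genes). The direction of the host median was thus the same with either lung tumor, unlike that of the human median. Blood markers were likewise higher in both lung tumors than in any brain tumor, as were leukocyte markers (120 to 614 RPKM in brain, 3598 and 4524 in lung tumors 1 and 2). Endothelial markers summed to 83.4 to 175 RPKM in the brain tumors, 97.8 in lung tumor 1 and 1344 in lung tumor 2. Their part in the host values was not tested.

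Without lung tumor 2, 3 members were called higher in brain (33.3% of all mouse genes): Rps6, Rps2 and Rpl35a, each listed at 0 in lung tumor 1. Rps6 read 2.38, 3.94 and 2.99 RPKM in the brain tumors and 1.95 in lung tumor 2. At the mouse depth of lung tumor 1, a count of 0 allows up to 3 reads, or 16.7 RPKM for Rps6, 13.2 for Rps2 and 24.5 for Rpl35a, all above the brain values. All 8 members at 0 there had brain values under the level that 0 reads allow, so that a difference was not detectable at this depth. Rps13, also at 0 there, read 0.684, 2.27 and 3.01 RPKM in the brain tumors and 4.21 in lung tumor 2. Rpl15 read 40.8, 45.6 and 44.5 RPKM in the brain tumors, 34.5 in lung tumor 1 (7 reads) and 26.6 in lung tumor 2, the reverse order of most members, and was not called (0.51, SE 0.293, adjusted p 0.252).

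Among the host members with the lowest log2 fold changes, Rps28 and Rpl9 had few reads in brain tumor 1, with 1 read each. Rps28 read 0.944, 13.0 and 2.37 RPKM in the brain tumors, 276 in lung tumor 1 and 23.7 in lung tumor 2 (-4.20, SE 1.26, limma adjusted p 0.0624). Rps26, at the mRNA exit channel, read 77.4, 71.3 and 44.4 RPKM, then 1301 and 112. Rps19 read 85.7, 80.8 and 55.2 RPKM, then 1220 and 142, and Rpl9 read 0.488, 4.59 and 4.15, then 28.6 and 11.02. In all 4 the lung tumors lay above all brain tumors, though Rpl9 rested on 5 reads in lung tumor 1. Rpl3l, the muscle paralogue of Rpl3, read 0.349, 0.193 and 0.329 RPKM, then 12.2 (3 reads) and 1.07. Rpl22l1 read 28.1, 24.9 and 30.8 RPKM in the brain tumors, 160 in lung tumor 1 and 31.5 in lung tumor 2, beside 186, 179 and 156, then 1450 and 245, for Rpl22.

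The host levels also spanned a wide range, with other genes at the bottom. Of the 76 mouse members other than paralogues, 12 stood below 10% of the median member's mean of 44.3 RPKM: Rpl29, Rpl24, Rps29, Rpsa, Rps2, Rpl19, Rps13, Rps6, Rpl23a, Rps23, Rps16 and Rps12. All 12 have the same symbol in the human table and 0 of them were low there. Rpsa, for example, read 0.775, 1.07 and 0.487 RPKM in the brain tumors, 2.26 in lung tumor 1 and 1.59 in lung tumor 2 of the mouse table. Rpsa itself held 4, 10 and 8 reads in the brain tumors, then 1 and 16. Its 7 pseudogene rows held 268, 173 and 234 reads in the brain tumors, 233 in lung tumor 1 and 298 in lung tumor 2. How reads matching a gene and its pseudogenes were counted is not given, so the levels of these 12 mouse members are uncertain too. Of the 10 low human members, 9 have the same symbol in the mouse table and 0 were low there. Mouse Rpl7 read 78.5, 77.6 and 75.5 RPKM in the brain tumors, 371 in lung tumor 1 and 124 in lung tumor 2, with lung tumor 1 highest. Over the 80 shared members, rho between the human and mouse mean RPKM was 0.17. The tables were scaled separately, so that only the order within a table is compared.

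Across the tables, mouse reads on the 80 shared members per 100 human reads on them numbered 3.33, 8.43 and 30.3 in brain tumors 1, 2 and 3, 1.12 in lung tumor 1 and 23.6 in lung tumor 2. For the 13244 genes with the same symbol in both tables the numbers were 31.0, 75.9 and 345, then 3.33 and 129. The libraries kept the same order in both, and the ribosomal protein genes had fewer mouse reads per human read in every library. How a read that matched both genomes was assigned is not given in the sources used here, and its part in these values was not tested.

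Other parts of the translation machinery were read from gene lists, each given as counts and medians. In the cancer cells, limma called 0 genes in any list. Initiation factors had a median log2 fold change of -0.10 (31 genes), -0.09 without lung tumor 1 and 0.02 without lung tumor 2. Elongation and termination factors had a median of -0.12 (8 genes), 0.0039 without lung tumor 1 and -0.14 without lung tumor 2. The most abundant of these was EEF2, the translocation factor, at 4904, 4944 and 6094 RPKM in the brain tumors, 3458 in lung tumor 1 and 3380 in lung tumor 2, with both lung tumors under all brain tumors (0.63, SE 0.423, adjusted p 0.570). PABPC1, the poly(A)-binding protein and itself a TOP transcript, read 2421, 2274 and 2292 RPKM, then 1740 and 2078. Both genes were thus lowest in lung, but their lists were split. Of the 31 initiation factors 18 had a negative log2 fold change, and of the 8 elongation and termination factors 4 did. The lowest value among the elongation and termination factors was -2.25.

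Other TOP transcripts, among them FAU, had a median of -0.21 (10 genes), 0.41 without lung tumor 1 and -0.74 without lung tumor 2. TPT1 read 2674, 2602 and 2864 RPKM in the brain tumors, 3400 in lung tumor 1 and 1959 in lung tumor 2, and the gene for RACK1, listed as GNB2L1, read 1587, 1432 and 1817, then 2554 and 1146. Brain lay between the lung tumors for both, the order seen in 45 ribosomal protein genes. RNA polymerase I and ribosome biogenesis genes had a median of -0.18 (37 genes), -0.28 without lung tumor 1 and -0.14 without lung tumor 2. Nucleolin (NCL) read 1054, 989 and 1540 RPKM, then 1054 and 1193. Mitochondrial ribosomal proteins had a median of -0.45 (77 genes), -0.06 without lung tumor 1 and -0.80 without lung tumor 2. Kinases and growth control genes of the mTOR pathway had a median of 0.38 (25 genes), -0.04 without lung tumor 1 and 0.90 without lung tumor 2. LARP1, which binds TOP mRNAs, read 773, 841 and 476 RPKM in the brain tumors, 298 in lung tumor 1 and 627 in lung tumor 2.

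In the host, the lists are read beside the 14.3% of all tested genes called higher and the 8.12% called lower. Of 29 initiation factors, 1 was called lower in brain: Eif3b, a scaffold subunit of eIF3, at 190, 177 and 164 RPKM in the brain tumors, 632 in lung tumor 1 and 336 in lung tumor 2 (-1.38, SE 0.368, limma adjusted p 0.0459). With the length trend removed 0 initiation factors were called, with a lowest limma adjusted p of 0.0692. Of 11 other TOP transcripts, Tpt1 was called lower (48.6, 43.9 and 39.4 RPKM, then 302 and 103; -1.98, adjusted p 0.0377). The list's median was -1.01, -0.41 without lung tumor 1 and -2.39 without lung tumor 2. Of 9 elongation and termination factors, 1 was called, the neuronal and muscle isoform Eef1a2, which rose to 338, 347 and 430 RPKM in the brain tumors from 28.3 and 2.66 in lung tumors 1 and 2 (5.16, SE 0.845, adjusted p 0.0107). Of 76 mitochondrial ribosomal proteins, 3 were called lower (Mrpl14, Mrpl33 and Mrps21), of which Mrpl14 was not called without lung tumor 1 (limma adjusted p 0.0725). None of 37 ribosome biogenesis genes was called by limma, with 5 at an unadjusted p under 0.05.

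Of 27 host growth control genes, 3 were called higher and 1 lower, with the length trend removed 1 higher and 1 lower, shares not above those of all tested genes. Eif4ebp1, the translation repressor that mTOR inactivates, read 7.995, 5.27 and 1.87 RPKM in the brain tumors, 181 in lung tumor 1 and 29.5 in lung tumor 2, and was called lower (-3.77, SE 0.879, limma adjusted p 0.0311), but not without lung tumor 1 (adjusted p 0.0580). Tsc1, an upstream inhibitor of mTOR, read 26.7, 27.2 and 26.8 RPKM, then 6.95 and 13.0, and was called higher (1.40, SE 0.377, adjusted p 0.0468). Rps6ka5 and Rps6kl1, kinase genes that the naming rule leaves out, were the others called higher, Rps6ka5 not without lung tumor 1 (limma adjusted p 0.0505). A separate list of 11 transcription and assembly partners of ribosomal proteins had a median of -0.15, with 1 called higher and 0 lower. The called gene was Tsr2, a chaperone for Rps26. It read 30.2, 33.7 and 37.4 RPKM in the brain tumors against 4.95 and 9.91 in lung tumors 1 and 2 (2.10, SE 0.393, limma adjusted p 0.0158).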

How the data were processed

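RNA sequencing of total RNA from 3 brain and 2 lung tumors was deposited by the authors as RPKM, 1 table per species, with builds hg38 (GRCh38) and mm10 (GRCm38) per the submitters' processing notes. Not given in the sources used here are the aligner, the counter, the gene lengths and how reads matching several genes or both genomes were counted. Library numbers in the labels tied columns to samples, leaving 0 unmapped.

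The members, the gene lists and the tests were chosen with earlier results of these data known. Whole reads were recovered from the ratios of RPKM between libraries, known up to a common divisor, and the recovery and the fit were tested on simulated data. Genes seen in 1 library only have no such ratio and were set at 1 read. Implied lengths take the recovered total as the RPKM denominator. Genes that reached 1 RPKM in 2 libraries or more were fitted as log2(RPKM + 1), brain minus lung, with limma 3.58.1 in R 4.3.3 (eBayes with an intensity trend, both directions, Benjamini-Hochberg over all tested genes of a species). Fold changes are on that scale, which understates changes of low genes. An exact permutation of 3 against 2 cannot go below 0.2. Of human members 82 and of mouse members 78 passed the filter, leaving out RPL10L, and Rpl24, Rpl29, Rpl39l and Rps29.

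Genes named are the 5 members with the highest mean, the 5 highest and 5 lowest log2 fold changes, called members, the stalk, 5S, ubiquitin-fusion and paralogue genes, and up to 4 called or the 2 most abundant genes of other lists. Some of these genes are counted but not reported here by name, nor drawn in the plots by gene. Human positions and pseudogenes come from RefSeq's GRCh38 annotation, with each pseudogene assigned to a family by its symbol. Alternatives were other pseudocounts, filters, scalings, a length correction, voom, covariates and leaving out each library. Pseudogene rows added to the shares, and medians over members with a mean of 100 or more reads, were added after seeing the data.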

Additional observations from a re-analysis of the deposited data

How the results depend on the processing

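The human member median of -0.66 kept its direction under every other setting except without lung tumor 1, where it was 0.20. It ranged from -1.43 to 0.20 when 1 library was left out, and the mouse median of -1.62 from -2.66 to -0.55. Leaving out 1 library gave 0 to 59 human and 0 to 64 mouse members called, and 0 to 1905 human and 1195 to 8275 mouse genes called, against 1 and 3457 in all. Median-ratio scaling, quantile normalization, the length correction and voom moved the median of all human genes from 0.09 to between -0.03 and 0.14 and of all mouse genes from 0.08 to between -0.15 and 0.22. Relative to that median the members stood at -0.79 to -0.47 in human and -1.70 to -1.08 in mouse, the values as deposited included. Mouse members called numbered 1 with a pseudocount of 0.1, with no filter or with the human read share as a covariate, and 4 with quantile normalization or voom on recovered reads. With no filter 2295 mouse genes were called. The human read share and voom each left 0 human genes called. With the human read share as a covariate the human member median was -0.36. Without lung tumor 1 the sign turned for 16 named human members, and without lung tumor 2 for RPL15, RPL22, RPL3 and RPS27L. In the cancer cells the log2 fold changes of these genes, from without lung tumor 2 to without lung tumor 1, ran RPL10 -0.61 to 0.39, RPL11 -1.25 to 0.58, RPL15 -0.67 to 0.85, RPL22 -0.59 to 0.67, RPL26 -1.73 to 0.25, RPL3 -0.31 to 0.61, RPL30 -1.31 to 0.33, RPL37 -1.60 to 0.21, RPL39 -2.21 to 0.24, RPL4 -1.02 to 0.29, RPL41 -0.59 to 0.14, RPL5 -0.84 to 0.61, RPLP0 -0.80 to 0.41, RPLP1 -1.99 to 0.032, RPLP2 -2.03 to 0.051, RPS27A -2.49 to 0.018, RPS27L -0.20 to 0.53, RPS4X -1.01 to 0.45, RPS6 -1.33 to 0.20 and RPSA -1.43 to 0.013. In the host the ranges with 1 library left out were -0.70 to 2.66 for Rpl35a, -0.68 to 0.48 for Rpl5 and -0.89 to 1.49 for Rps13.

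Signs also changed under other settings, and the cause was not tested. With the length trend removed the log2 fold change was -0.053 for RPL15 and -0.0089 for RPL22. With median-ratio scaling it was -0.058 for RPL15, -0.10 for RPL22 and 0.053 for Rpl5. With quantile normalization it was 0.020 for RPL10, 0.049 for RPL11, 0.080 for RPL5, 0.00094 for RPLP0 and -0.30 for Rps13. With the human read share as a covariate it was 0.039 for RPL10, 0.092 for RPL5 and -0.27 for Rps13. With voom it was -0.58 for Rpl35a, 0.41 for Rpl5 and -0.96 for Rps13.

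The replicate number as a block takes brain tumor 3 out of the comparison, since no lung tumor has its number. Under this replicate block there were 114 human genes called, 1484 mouse genes called and 0 mouse members called, and the log2 fold change was -0.071 for human RPL15, -0.047 for human RPL22 and -0.11 for human RPS27L. Correlations of the deviations of same-numbered tumors were -0.08 and 0.06 in human and 0.03 and 0.05 in mouse genes, and the numbers were not taken to pair tumors. The mouse depth of lung tumor 1 limits every host value from it.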

Other observations

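The pseudogene rows of the member families, which belong to no comparison, were counted apart. Among human genes, 451 such rows took 0.0231%, 0.0190% and 0.0198% of reads in brain tumors 1, 2 and 3, 0.0646% in lung tumor 1 and 0.0216% in lung tumor 2, so that lung tumor 1 was highest there too. Among mouse genes, 125 rows took 0.0150%, 0.00698% and 0.00577% of reads in the brain tumors, 0.142% in lung tumor 1 and 0.0105% in lung tumor 2. Many of these mouse reads were on the 7 rows of the Rpsa family. That family held 268 of 408, 173 of 343 and 234 of 498 such reads in the brain tumors. In lung tumor 1 it held 233 of 329 and in lung tumor 2 298 of 555. Per 100 reads on the members, the pseudogene rows held 0.597, 0.584 and 0.534 human reads in the brain tumors, 0.652 in lung tumor 1 and 0.700 in lung tumor 2. In mouse they held 3.75, 1.95 and 1.80 in the brain tumors, 4.54 in lung tumor 1 and 2.04 in lung tumor 2. Adding them moved the members' share of human reads in lung tumor 1 from 9.91% to 9.98% and of mouse reads from 3.13% to 3.28%. With the members limited to those with a mean of 100 or more reads, 73 human and 31 mouse, the median log2 fold change of brain over lung was -0.62 and -1.86.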
